A study of Mus musculus with 37 samples.

Results

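The 10 genes described here, Prdx1 to Prdx6, Gpx1, Gpx4, Sod1 and Sod2, encode enzymes that remove superoxide and peroxides. They were chosen by their symbols, matched to Ensembl identifiers with the GENCODE mouse annotation, and make up 10 of the 54752 gene identifiers counted, which stand beside 92 ERCC spike-in sequences. Superoxide dismutases turn superoxide into hydrogen peroxide, and peroxiredoxins and glutathione peroxidases then reduce hydrogen peroxide and organic peroxides with electrons from thioredoxin or glutathione, which NADPH restores. Each family has members for separate places in the cell: the cytosol, the mitochondria, the endoplasmic reticulum or membrane lipids. A full-grown mouse oocyte makes little new RNA, so it passes through maturation largely on stored RNA and protein, with a large store of mitochondria.

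RNA of 37 single oocytes from C57BL/6 mice aged 6 to 8 weeks was measured by Smart-seq2, a full-length method that primes on poly(A) tails, to compare the stages of maturation. Batch A held 6 germinal vesicle (GV) oocytes, in prophase arrest, and 6 metaphase II (MII) eggs, and batch B held 10 GV and 15 metaphase I (MI) oocytes. GV oocytes were collected 48 h after PMSG, MII eggs were ovulated in vivo and collected 15 h after hCG given 48 h after PMSG, and MI oocytes came from GV oocytes cultured for 8 h in M16 medium. All came from hormone-stimulated females and were picked up in M2 medium with hyaluronidase, an enzyme that frees oocytes from cumulus cells, and the MI cultures began with oocytes already bare of them. The zona pellucida was taken off with acid, and the polar body was removed. MI and MII oocytes never shared a batch, so a direct difference between MI and MII and a difference between batches cannot be told apart, and the in vitro culture of MI oocytes cannot be told apart from their stage. Nothing states that oocytes came from separate animals, so p-values measure only the spread between these oocytes.

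The expected counts per oocyte, as estimated with RSEM, ran from 7509812 to 12648571 in batch A GV oocytes, from 9930422 to 13988336 in MII oocytes, from 7184193 to 17724506 in batch B GV oocytes and from 2709247 to 19390137 in MI oocytes. All 10 genes used as oocyte markers, Zp1, Zp2, Zp3, Gdf9, Bmp15, Oosp1, Ddx4, Nlrp5, Mos and Npm2, were detected in every oocyte. Some libraries stood apart. MII oocyte 1 had 29816 genes with a count against at most 22598 in the other MII oocytes, and MI oocyte 15 had the lowest depth and the fewest genes, 12654. In MI oocytes 4, 8 and 9 HTSeq counts divided by RSEM counts had a median over genes of 1.13, 1.11 and 1.07, against at least 1.98 in the other 34 oocytes. Tests of the members and of the listed genes within each batch were also run without these libraries, and the text gives the calls that ended. Levels, marker sums and correlations include all oocytes.

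Per kilobase of transcript, Prdx2 and Prdx1 were the most abundant of the 10 genes. Prdx1 and Prdx2 are cytosolic peroxiredoxins that use thioredoxin. In GV oocytes of batch A the median in CPM per kb (CPM being counts scaled to the library total, normalised on 1 TMM scale over all 37 oocytes) was 240.0 for Prdx2 and 180.5 for Prdx1, ranks 136 and 175 of 15080 genes, and their ranges overlapped. Sod1, the cytosolic copper and zinc dismutase, followed at 103.7 CPM per kb and rank 343, below every oocyte's value for Prdx1 and above every value for Gpx4. A middle group held Gpx4 at 29.8, Prdx5 at 21.4 and Sod2 at 20.8 CPM per kb, with overlapping ranges. Prdx3 at 6.03, Gpx1 at 5.97, Prdx6 at 3.47 and Prdx4 at 1.04 CPM per kb were lowest, and neighbours in that order overlapped.

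The order of these levels was similar in the other groups, with the medians in CPM per kb as follows. MII oocytes held Prdx2 at 274.7, Prdx1 at 265.9 and Sod1 at 58.5, with Sod1 again apart from its neighbours on both sides. Sod2 at 25.97, Gpx4 at 19.3 and Prdx5 at 10.3 came next in MII oocytes, and Prdx3 at 5.15, Gpx1 at 4.86, Prdx6 at 4.53 and Prdx4 at 1.05 came last. In batch B neighbours among the 3 leading genes overlapped, with GV medians of 138.5 for Prdx2, 90.8 for Prdx1 and 71.4 for Sod1, and MI medians of 143.0, 70.5 and 69.5. The remaining MI medians were 16.6 for Gpx4, 14.4 for Sod2, 13.1 for Prdx5, 2.08 for Prdx6, 1.60 for Prdx3, 0.944 for Gpx1 and 0.0961 for Prdx4. Prdx1 and Prdx2 together made up a larger part of the summed CPM per kb of the 10 genes in every MII oocyte (77.6% to 83.6%, median 79.7%) than in any GV oocyte of batch A (60.1% to 74.5%, median 69.3%). In batch B the same share had overlapping ranges, 56.8% to 75.9% in GV and 49.1% to 67.6% in MI oocytes.

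**Figure D1:**
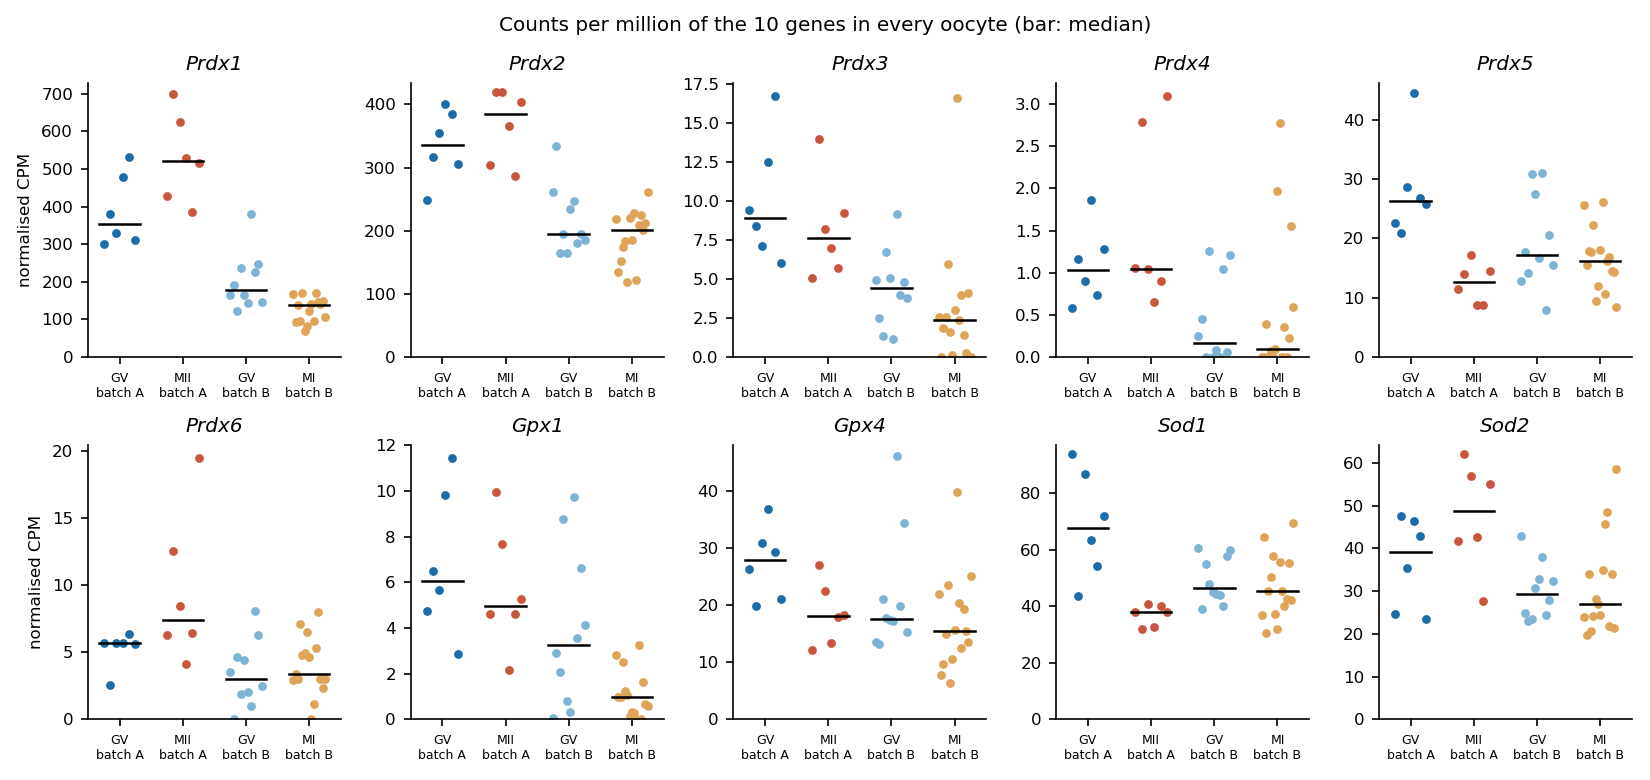
Normalised CPM (vertical axes, linear, 1 scale per gene) of the 10 genes in each oocyte, by stage and batch, with bars at the medians. Prdx5 lies at 20.8 or above in all 6 GV oocytes of batch A and at 17.2 or below in all 6 MII oocytes, and Sod1 at 43.4 or above and 40.9 or below.

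From GV to MII in batch A, 3 of the 10 genes fell and none rose: Prdx5, Sod1 and Gpx4. The comparison asks which of these RNAs differ between the prophase-arrested oocyte and the ovulated egg, relative to the other RNAs on the TMM scale. Plain shares of the total counts can move otherwise. For the summed members the ratio of means, MII over GV, was 1.14 in normalised CPM and 0.926 as a percent of counts, with overlapping groups in both. All 10 genes were tested, 3 were lower at an adjusted p under 0.05, and over all genes 1490 of 12929 were (11.5%). With a fold over 2 in addition, 1 member was lower, beside 6.32% of all genes. No member was higher, where 9.06% of all genes passed in that direction and 2.15% also with a fold over 2; 4 of the 10 had an unadjusted p under 0.05, 3 of them being the lower ones and the other Prdx6, and DESeq2 made 3 calls among the members.

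Prdx5 (ENSMUSG00000024953.16 in the count tables, version 17 in GENCODE M21, which places it at chr19:6906697-6910106, minus strand, GRCm38) encodes a peroxiredoxin found in mitochondria, peroxisomes and the cytosol. Its lowest, median and highest normalised CPM were 20.8, 26.3 and 44.5 in the 6 GV oocytes and 8.70, 12.7 and 17.2 in the 6 MII oocytes. Every MII oocyte was below every GV oocyte, a pattern shown by 661 of 12929 genes (5.11%). The change was −1.24 on the log2 scale (SE 0.22, adjusted p = 0.00127), 2.37 times lower. It stood on expected counts of 233 to 525 in GV and 121 to 197 in MII oocytes. Without MII oocyte 1 it was −1.23 (adjusted p = 0.00337), and without GV oocyte 4, the highest, −1.06 (adjusted p = 0.00324). GV oocyte 4 also had 53 counts of the granulosa cell marker Fshr, against at most 10 in the other GV oocytes of batch A. Its 11 counts of Ccnd2, 7 of Gja1 and 3 of Inha lay within the range of the others, 2 to 114, 2 to 26 and 1 to 22, and the part of such RNA in its Prdx5 value was not tested.

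Sod1 (ENSMUSG00000022982.10; chr16:90220754-90226329, plus strand) had a lowest, median and highest normalised CPM of 43.4, 67.5 and 93.8 in GV and of 32.1, 38.1 and 40.9 in MII oocytes. Here too all 6 MII oocytes were below all 6 GV oocytes, and the values lay closer together in MII (coefficient of variation 10.2%) than in GV oocytes (27.9%). Sod1 fell by 0.95 on the log2 scale (SE 0.17, adjusted p = 0.00153), 1.93 times lower, and without MII oocyte 1 by 0.96 (adjusted p = 0.00355). With HTSeq counts the change was smaller, −0.63 (adjusted p = 0.0141). The mitochondrial manganese dismutase Sod2 (ENSMUSG00000006818.5; chr17:13006846-13040063, plus strand) had normalised CPM of 23.5, 39.2 and 47.5 in GV and 27.7, 48.8 and 62.0 in MII oocytes. Its groups overlapped, with 3 MII oocytes above all GV oocytes, and its change of 0.31 (SE 0.22, adjusted p = 0.341) did not pass and turned to −0.39 when scaled to ERCC spike-ins.

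Gpx4 (ENSMUSG00000075706.10; chr10:80047166-80056439, plus strand) encodes the selenium enzyme that reduces peroxides of membrane lipids. Its normalised CPM were 19.9, 27.9 and 36.8 in GV and 12.1, 18.1 and 26.96 in MII oocytes, lowest, median and highest. The groups overlapped, with all 6 MII oocytes below the GV median and 4 of them below all GV oocytes. Gpx4 fell by 0.62 on the log2 scale (SE 0.21, adjusted p = 0.0458), 1.54 times lower. The call ended with HTSeq counts (−0.39, adjusted p = 0.246), with RLE size factors (−0.61, adjusted p = 0.0516), in a fit of all 4 groups (−0.56, adjusted p = 0.353) and with a replicate block (−0.64, adjusted p = 0.108). It also ended without GV oocyte 1, 3, 4 or 5 (adjusted p = 0.0637, 0.0835, 0.113 and 0.0911) and without MII oocyte 1, 4, 5 or 6 (adjusted p = 0.102, 0.106, 0.0742 and 0.0769). The other selenium peroxidase, Gpx1 (ENSMUSG00000063856.7; chr9:108338903-108340343, plus strand), acts in the cytosol and mitochondria on hydrogen peroxide. It had normalised CPM of 2.88, 6.07 and 11.4 in GV and 2.17, 4.94 and 9.94 in MII oocytes, which overlapped, and its change of −0.33 (SE 0.37, adjusted p = 0.563) did not pass.

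The cytosolic peroxiredoxins did not pass the test. Prdx1 (ENSMUSG00000028691.12; chr4:116685544-116700822, plus strand) had normalised CPM of 300.3, 354 and 532 in GV and 387, 522 and 698 in MII oocytes. All 6 MII oocytes were above the GV median and 2 were above every GV oocyte. The change was 0.38 (SE 0.18, adjusted p = 0.149), and with ERCC scaling it was −0.34. Prdx2 (ENSMUSG00000005161.15; chr8:84969587-84974834, plus strand) had 248, 336 and 401 normalised CPM in GV and 286, 385 and 420 in MII oocytes, with overlapping groups. Its change was 0.07 (SE 0.15, adjusted p = 0.787), and with ERCC scaling −0.65. The ratio of Prdx1 to Prdx2 in CPM per kb had a median of 0.853 in GV oocytes (0.661 to 0.987) and 1.02 in MII oocytes (0.909 to 1.19), and the ranges overlapped.

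The remaining peroxiredoxins were scarce. Prdx3 (ENSMUSG00000024997.7; chr19:60864051-60874556, minus strand), the mitochondrial form, had normalised CPM of 6.00, 8.92 and 16.8 in GV and 5.09, 7.61 and 14.0 in MII oocytes. Prdx4 (ENSMUSG00000025289.15; chrX:155323918-155340754, minus strand), the form of the endoplasmic reticulum, had 0.582, 1.03 and 1.86 in GV and 0.652, 1.05 and 3.10 in MII oocytes, on 6 to 36 expected counts. Prdx6 (ENSMUSG00000026701.15; chr1:161240112-161251219, minus strand), which has a single reactive cysteine and also phospholipase activity, had 2.59, 5.69 and 6.35 in GV and 4.13, 7.44 and 19.5 in MII oocytes. For each of the 3 genes the groups overlapped, although 4 of 6 MII oocytes had more Prdx6 than any GV oocyte. The changes were −0.36 for Prdx3 (SE 0.30, adjusted p = 0.417), 0.48 for Prdx4 (SE 0.45, adjusted p = 0.486; −0.13 with ERCC scaling) and 0.79 for Prdx6 (SE 0.34, adjusted p = 0.108; 0.01 with ERCC scaling).

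These changes are relative to the other RNAs. ERCC spike-ins, RNA of known sequence whose amount per oocyte the labels do not give, made up 0.591% to 1.47% of counts in GV and 0.979% to 1.40% in MII oocytes of batch A, and at most 32 counts in any oocyte of batch B, where they could not serve as a scale. Scaled to ERCC, which takes that amount as equal, the median change of all genes moved from 0.01 to −0.72 on the log2 scale, and calls moved from 1172 higher and 1490 lower to 144 higher and 5452 lower. The member median became −0.85, and 6 of the 10 genes were lower. Prdx5 was then at −1.93 (adjusted p = 4.38e-06), Sod1 at −1.74 (adjusted p = 5.65e-05) and Gpx4 at −1.34 (adjusted p = 0.000616). Gpx1 at −1.04 (adjusted p = 0.0362), Prdx3 at −1.10 (adjusted p = 0.0158) and Prdx2 at −0.65 (adjusted p = 0.0212) also passed, and Prdx2, Prdx1, Prdx4 and Sod2 turned direction against the TMM scale. Per 1000 ERCC counts Prdx5 had 3.09 to 5.50 counts in GV and 0.879 to 1.45 in MII oocytes, Sod1 5.82 to 21.7 and 3.18 to 4.21, and Gpx4 2.96 to 6.09 and 1.19 to 2.82. These 3 genes had no overlap between stages on that scale, where 5452 of 12929 genes were called lower. The share of all genes without overlap on that scale was not counted.

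**Figure D2:**
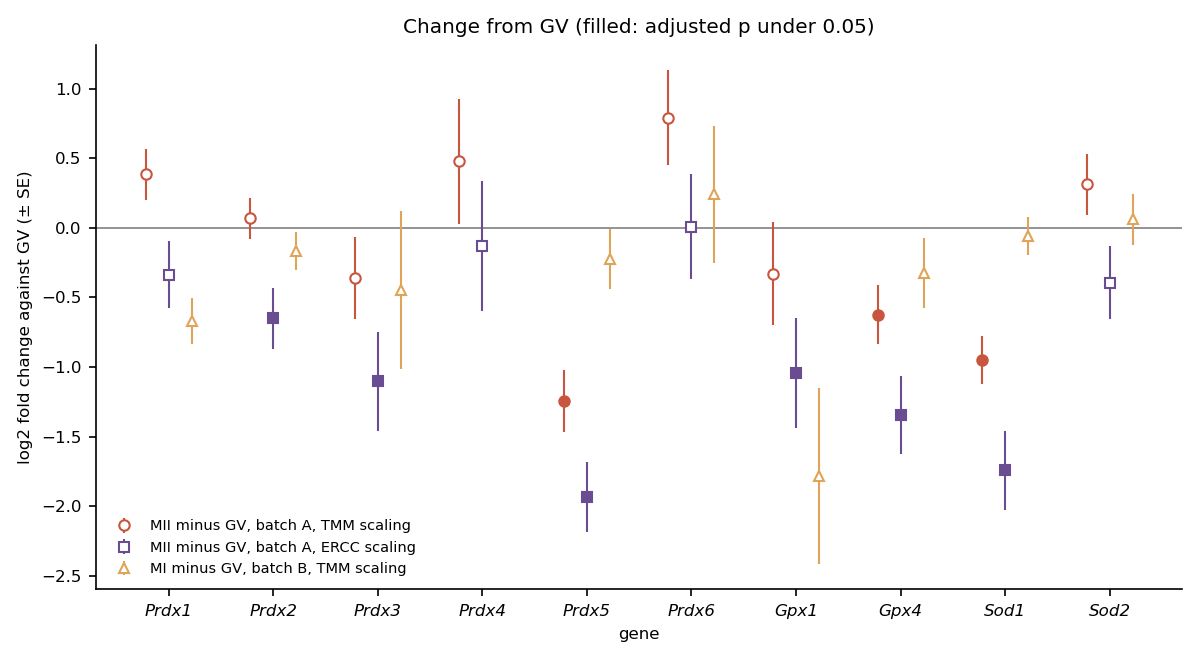
Log2 fold change against GV oocytes of the same batch (vertical axis, bars ± SE) for the 10 genes, from MII with TMM scaling, MII with ERCC scaling and MI with TMM scaling; filled symbols have an adjusted p under 0.05. Prdx5 is at −1.24 and −1.93 and Sod1 at −0.95 and −1.74 at MII, while Prdx1, Prdx2, Prdx4 and Sod2 lie above 0 with TMM and below 0 with ERCC scaling.

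From GV to MI in batch B no member passed the test. The comparison asks what differs after germinal vesicle breakdown, before the first polar body. Over all genes 18 of 12419 passed (0.145%), and 1371 had an unadjusted p under 0.05. That count is unsteady: it moved by over 1.5 times in 17 of 25 fits without 1 oocyte, from 0 without MI oocyte 7 to 97 without MI oocyte 9, and was 39 without MI oocytes 4, 8 and 9. Prdx4 was too scarce to be tested, with 0 to 17 expected counts in GV and 0 to 39 in MI oocytes. Of the 9 members tested with edgeR, 0 passed and 2, Prdx1 and Gpx1, had an unadjusted p under 0.05, while DESeq2 called 1, Prdx1.

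Prdx1 had normalised CPM of 122, 178 and 380 in the 10 GV oocytes and 68.7, 138 and 171 in the 15 MI oocytes of batch B. All 15 MI oocytes were below the GV median and 6 were below every GV oocyte, so the groups overlapped. The change was −0.67 (SE 0.17, p = 0.000322, adjusted p = 0.0987). It passed with DESeq2 (−0.67, adjusted p = 0.0193), in the fit of all 4 groups (−0.68, adjusted p = 0.0270) and without MI oocyte 9 (−0.68, adjusted p = 0.0491), and not in 30 other alternatives. Without MI oocytes 4, 8 and 9 it was −0.64 (adjusted p = 0.106), and without GV oocyte 7, the highest, −0.52 (adjusted p = 0.228). Of the granulosa cell markers, GV oocyte 7 alone among the GV oocytes of batch B had Fshr counts, 22, and it had 10 of Inha against at most 2 in the others. Its 24 counts of Ccnd2 and 16 of Gja1 lay within the range of the others, 7 to 141 and 4 to 162. The part of such RNA in its Prdx1 value was not tested. The distance of this oocyte from the others depends on scaling: as a plain share of its library it had 268 CPM of Prdx1, with the nearest at 250.4, and on the TMM scale it was the highest GV oocyte of batch B for Prdx3, Prdx5, Gpx1 and Gpx4 as well.

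Among the 9 members tested, Gpx1 had the widest change at MI and the fewest counts in MI oocytes. Normalised CPM were 0.0827, 3.24 and 9.75 in GV and 0, 0.959 and 3.24 in MI oocytes, from 1 to 107 and 0 to 36 expected counts. In 14 of 15 MI oocytes it was below the GV median and in 2 below every GV oocyte, and the groups overlapped. The change of −1.78 (SE 0.63, p = 0.00824, adjusted p = 0.236) did not pass. Gpx4 had 13.2, 17.6 and 46.1 normalised CPM in GV and 6.43, 15.5 and 39.8 in MI oocytes, with a change of −0.33 (SE 0.25, adjusted p = 0.685) and overlapping groups.

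Sod1 had normalised CPM of 39.1, 46.5 and 60.4 in GV and 30.4, 45.2 and 69.2 in MI oocytes, a change of −0.06 (SE 0.14, adjusted p = 0.931). For Prdx5 the values were 7.97, 17.2 and 30.9 in GV and 8.35, 16.1 and 26.1 in MI oocytes, a change of −0.23 (SE 0.22, adjusted p = 0.767). Both pairs of groups overlapped. In batch A the same 2 genes were separate between 6 GV and 6 MII oocytes. Full separation is harder to meet between 10 GV and 15 MI oocytes, so the 2 patterns are not like for like. Prdx2 ran at 164, 194 and 335 in GV and 118, 200.4 and 261 in MI oocytes (−0.17, SE 0.14, adjusted p = 0.704), and Sod2 at 23.0, 29.3 and 42.8 and 19.8, 27.04 and 58.5 (0.06, SE 0.18, adjusted p = 0.952). Prdx3 was at 1.15, 4.405 and 9.18 in GV and 0, 2.37 and 16.7 in MI oocytes (−0.45, SE 0.57, adjusted p = 0.843), and Prdx6 at 0.0570, 3.02 and 8.07 and 0, 3.41 and 8.02 (0.24, SE 0.49, adjusted p = 0.916). All of these groups overlapped too. Without MI oocytes 4, 8 and 9 the change of Prdx3 was −1.05 (adjusted p = 0.521), that of Sod2 0.12 (adjusted p = 0.897), and without MI oocyte 15 that of Sod2 was −0.03 (adjusted p = 0.978) and that of Sod1 −0.11 (adjusted p = 0.848).

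The change at MII and the change at MI, each against GV of its own batch, differed for 2 of the 10 members. This contrast was fitted over all 37 oocytes, and 823 of 15083 genes passed (5.46%). Prdx1 differed by 1.13 on the log2 scale (SE 0.28, adjusted p = 0.00919). In the separate fits within each batch its change was 0.38 at MII and −0.67 at MI, and neither passed. The MI change did pass in the fit of all 37 oocytes, as given above. Changes from the separate fits need not subtract to the difference from the joint fit. Without MII oocyte 1 the difference was 1.21 (adjusted p = 0.0100), and without MI oocytes 4, 8 and 9 it was 1.11 (adjusted p = 0.0190). Sod1 differed by −0.82 (SE 0.23, adjusted p = 0.0274), with −0.95 at MII and −0.06 at MI in the separate fits. The Sod1 call ended without MII oocyte 1 (−0.80, adjusted p = 0.0562) and with HTSeq counts (−0.51, adjusted p = 0.380). For Prdx5 the difference of −0.94 (SE 0.35, adjusted p = 0.111) did not pass, and it did with HTSeq counts (−1.32, adjusted p = 0.0414). Markers moved in the same contrast: 4 of 10 oocyte markers passed, among them Zp2 (−1.74, adjusted p = 0.000131) and Npm2 (−1.16, adjusted p = 0.000641), as did the immune marker C1qb (−1.55, adjusted p = 0.0373) and the red blood cell marker Hbb-bs (5.40, adjusted p = 0.00892). Without MII oocyte 1 C1qb and Hbb-bs did not pass, and the 4 oocyte markers did. Of the granulosa and cumulus cell markers 0 of 7 passed, and Inhba came nearest (2.72, adjusted p = 0.0518). Without MI oocytes 4, 8 and 9, 1 of 7 passed, as higher. Stage and batch cannot be told apart in this contrast, and the levels of the GV oocytes themselves differed. Every member had a lower mean in GV oocytes of batch B, from 0.400 (Prdx4) to 0.818 (Sod2) times that of batch A. In 9 of 10 GV oocytes of batch B Prdx1 was below all 6 of batch A, as Prdx2 and Prdx3 each were in 8 of 10. These differences were not tested, and the share of all genes with such a pattern was not counted.

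The deposited transcript counts hold 52 annotated transcripts of the 10 genes, of which 25 made up at least 5% of their gene's counts in the mean of some group. Most genes had a single dominant form: Sod1-201 held a median of 99.9% of Sod1 counts in GV and 99.8% in MII oocytes of batch A, Prdx5-201 95.8% and 98.3%, Gpx4-202 97.5% and 95.8%, and Prdx1-204 78.9% and 76.7%. Sod2 was mixed, with the retained-intron form Sod2-204 at a median of 44.0% and 43.1%. The processed-transcript form Sod2-207 followed at 29.2% and 29.1%, and the full-length coding form Sod2-201 at 19.7% and 19.2%. Prdx6-208, of the nonsense-mediated decay class, held a median of 50.5% of Prdx6 counts in GV and 42.6% in MII oocytes. The coding form Prdx6-202 held 38.0% and 52.9%, and so led by median in MII oocytes. By mean it led in both groups, with 43.82% in GV and 50.15% in MII oocytes against 41.61% and 40.46% for Prdx6-208. In MII oocytes 1 and 3 Prdx6-208 held more. In batch A 18 of these transcripts were tested and 3 passed, beside 2089 of 22461 of all transcripts (9.3%). Sod1-201 fell by 0.97 (SE 0.18, adjusted p = 0.00510) and Prdx5-201 by 1.21 (SE 0.25, adjusted p = 0.00881), as their genes did. With a replicate block the call of Prdx5-201 ended (−1.18, adjusted p = 0.0794). Gpx4-202, the main form of the remaining gene that fell, did not pass (−0.68, SE 0.25, adjusted p = 0.112).

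The remaining call was a form of Prdx2, a gene whose total did not pass. Prdx2-208 had 20.7, 47.2 and 68.7 normalised CPM in GV and 68.8, 77.5 and 118.6 in MII oocytes. Every MII oocyte was above every GV oocyte, but the nearest values, 68.65 in GV oocyte 1 and 68.82 in MII oocyte 5, almost met. The share of all transcripts with such a pattern was not counted. It rose by 0.81 (SE 0.23, adjusted p = 0.0468) on the TMM scale and did not on the ERCC scale (0.05, adjusted p = 0.910). The call also ended without MII oocyte 1 (0.82, adjusted p = 0.0800), with no filter on low counts (0.78, adjusted p = 0.0842) and with a replicate block (0.88, adjusted p = 0.0673). As a share of Prdx2 counts, Prdx2-208 ran at 5.39%, 13.9% and 27.7% in GV and 18.6%, 22.5% and 28.3% in MII oocytes. In 5 of 6 GV oocytes this share was below that of every MII oocyte, and GV oocyte 1 was the exception. A test of transcript usage, which asks whether a gene's transcripts change apart from one another, passed for Prdx2 (adjusted p = 0.0131) among the 4 members it could test, where 131 of 5477 genes passed (2.39%), and gave an adjusted p of 1 for Prdx1, Prdx6 and Sod2. With the replicate block 0 members passed the usage test.

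Prdx2-201 was the leading form in batch A, with 41.4%, 60.0% and 69.2% in GV and 49.7%, 55.3% and 59.2% in MII oocytes, and all 6 MII oocytes were below the GV median. In batch B the forms stood level, with medians of 40.8% for Prdx2-201 and 39.3% for Prdx2-208 in GV and 37.6% and 38.0% in MI oocytes. Prdx2-208 had 26.9% to 47.4% in GV and 28.8% to 48.2% in MI oocytes, and the ranges overlapped. Of the 18 member transcripts tested in batch B with edgeR 0 passed, 3 had an unadjusted p under 0.05, and DESeq2 called 1, Prdx1-204 (−0.73, adjusted p = 0.0336). Over all 22717 transcripts edgeR called 0 (0%), with 1615 at an unadjusted p under 0.05, and DESeq2 called 120.

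**Figure D3:**
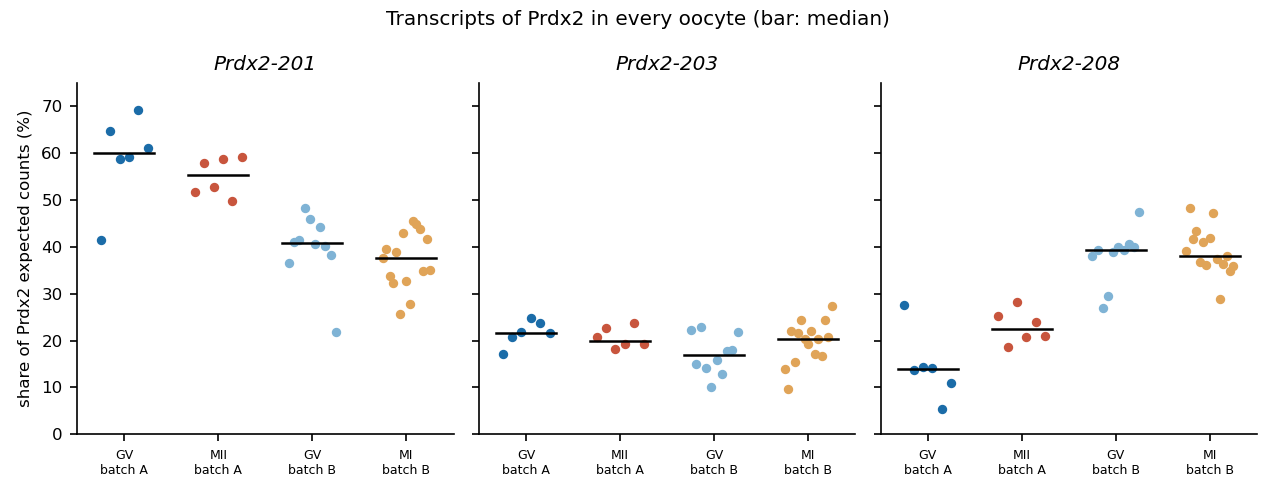
Share of Prdx2 expected counts (vertical axis, percent) given to each of its 3 main transcripts in every oocyte, by stage and batch, with bars at the medians. The Prdx2-208 median is 13.9% in GV and 22.5% in MII oocytes of batch A, against 39.3% and 38.0% in GV and MI oocytes of batch B.

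Prdx2-201 (chr8:84969611-84974834, GRCm38) and Prdx2-208 (chr8:84970239-84974660) share all 594 coding bases and differ at their ends. Prdx2-201 has 152 bases at its start that Prdx2-208 lacks and runs 174 bases past its 3′ end, giving 749 against 575 bases after the stop codon. The split of counts between them is uncertain. Parts of both forms are shared with other genes on the opposite strand, and the use of strand in the counting is not stated. Rnaseh2a covers the 152 starting bases, and 176 bases of Prdx2-203, and no base of Prdx2-208. Junb shares 173 bases with all 3 forms, up to chr8:84974656, and none of the 174 bases by which Prdx2-201 runs past Prdx2-208. Rnaseh2a itself fell from 6.01 to 9.50 normalised CPM in GV to 0.603 to 3.18 in MII oocytes (−1.76, SE 0.32, adjusted p = 0.00159), and Junb had a change of −0.28 (adjusted p = 0.698). Their part in the Prdx2 shares was not tested.

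Other members also overlap neighbours or have near copies, so their counts are uncertain, by an amount that was not tested. Trmt112, on the opposite strand, covers 409 bases of Prdx5-201, 19.1% of the exon bases of Prdx5, and had 23.0 to 50.1 normalised CPM in GV and 38.3 to 63.1 in MII oocytes (0.32, adjusted p = 0.299), while Prdx5 fell. HTSeq counts of Prdx5 exceeded RSEM counts by a median factor of 1.81 in GV and 1.51 in MII oocytes, without overlap. Sod1 shares no exon base with its neighbour Scaf4, and has a processed pseudogene, Gm8566, with 97.8% identity over 465 bases, mean RSEM counts of 1.5 in GV and 0.5 in MII oocytes, and mean HTSeq counts of 23.2 and 10.8. The HTSeq to RSEM ratio of Sod1 lay the other way, with a median of 2.57 in GV and 3.01 in MII oocytes, again without overlap, as did that of Gpx4, with 1.61 and 1.76 and no overlap. The cause was not tested. Gpx4 has the copy Gpx4-ps2, 99.7% identical over 762 bases, with mean RSEM counts of 6.00 in GV and 7.50 in MII oocytes and mean HTSeq counts of 56.3 and 54.8, and a second copy, AC122253.3, at 95.1%. Prdx1 has Gm21399 at 98.3% and Gm7204 at 97.5%, and Prdx2 has Tdpx-ps1 at 96.3%, each with at most 6.333 mean RSEM counts in any group. Their mean HTSeq counts in GV and MII oocytes were higher, 95.7 and 63.2 for Gm21399, 20 and 20.5 for Gm7204 and 31.3 and 26.8 for Tdpx-ps1.

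Because the libraries were primed on poly(A) tails, the last bases of the main transcripts are shown for the 3 genes that fell and for Prdx1 and Prdx2-208, from GENCODE M21 on GRCm38, written 5′ to 3′ along the transcript. Capitals mark the polyadenylation signal, AATAAA or its variant ATTAAA. Each run is the last 30 bases of its transcript, except that of Prdx5-201, which stops 2 bases before the end: Prdx5-201 chr19:6906708-6906737 (minus strand), Sod1-201 chr16:90226300-90226329, Gpx4-202 chr10:80056410-80056439, Prdx1-204 chr4:116700793-116700822 and Prdx2-208 chr8:84974631-84974660.
Prdx5-201: ttctgcAATAAAcagtttaatttgtgtctt
Sod1-201: tcaaaccATTAAActgtaatctgaagagtt
Gpx4-202: tgccttgtgggAATAAAatgtagaaatgtg
Prdx1-204: tgctctgcaaAATAAAtaggacttggccaa
Prdx2-208: cgtgcatagacatgaAATAAAtacttctgt

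Of these 5 transcripts only Sod1-201 ends with the variant signal ATTAAA. Over 58737 coding transcripts, 39.3% have AATAAA and 11.1% have ATTAAA in their last 40 bases, and 48.7% have either. Prdx2-201 and Prdx6-202 have neither in that window. The letters TTTTAT or TTTTAAT, which bind the polyadenylation regulator CPEB, are in the last 100 bases of 12.7% of coding transcripts (9.86% and 3.48%) and of none of the 27 coding transcripts of the 10 genes looked at, which says only that these letters are not in this window. Of the 27, Prdx1-201, Prdx1-203, Prdx1-205, Prdx2-204, Prdx4-203 and Sod2-205 have no annotated stretch after a stop codon, and Prdx5-204 has 0 bases there. The last bases of these transcripts need not be a true 3′ end. The 3 genes that fell have short ends after the stop codon, 140 bases in Prdx5-201, 72 in Sod1-201 and 221 in Gpx4-202. Gpx1-201 with 207 and Prdx4-201 with 60 are as short and did not pass, and Prdx1-204 has 1566, Prdx3-201 615, Prdx6-202 1609 and Sod2-201 4963.

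Gpx1 and Gpx4 carry selenocysteine at their active site, written by a TGA codon that elsewhere means stop. The codon is shown in capitals inside its reading frame, since it sets these 2 members apart from the other 8, for Gpx1-201 at chr9:108339439-108339465 and Gpx4-202 at chr10:80054725-80054751, both on the plus strand.
Gpx1-201: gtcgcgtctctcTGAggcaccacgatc
Gpx4-202: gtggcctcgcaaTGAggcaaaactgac

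The other genes of the pathway were counted in 9 lists with 111 genes, of which 74 could be tested in batch A. Over all genes tested in batch A with RSEM counts and TMM scaling 11.5% were lower and 9.06% higher. These shares are the background for each list count at MII below from that fit alone. Among the close relatives, 3 of 10 were tested and 1 fell, Ccs, the chaperone that loads copper into Sod1 (3.299 to 1.48 mean normalised CPM, −1.20, SE 0.32, adjusted p = 0.0155), a call that ended with HTSeq counts (−0.84, adjusted p = 0.0874). The list median was −0.87, beside 0.01 for all genes. Catalase (Cat) had a count in 21 of 37 oocytes, at most 92, and the extracellular dismutase Sod3 in 2. In the thioredoxin system, which restores peroxiredoxins, 2 of 11 fell and 0 rose (median 0.16): Txndc12 by 1.69 (SE 0.38, adjusted p = 0.00544), and mitochondrial Txn2 by 0.55 (SE 0.16, adjusted p = 0.0265; 76.6 to 54.7). The Txn2 call ended with HTSeq counts (−0.45, adjusted p = 0.0724) and without MII oocyte 1 (−0.50, adjusted p = 0.0621). Sulfiredoxin (Srxn1), which repairs overoxidised peroxiredoxins, had counts in 6 of 37 oocytes. In glutathione synthesis and recycling edgeR called 0 of 12 (median 0.07), with 4 at an unadjusted p under 0.05 and 1 called by DESeq2, and the smallest adjusted p was that of Gclc, a subunit of the rate-limiting enzyme (0.67, SE 0.26, adjusted p = 0.0783; −0.14 with ERCC scaling).

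Among glutathione transferases 4 of 11 fell and 0 rose (median −0.55), led by Gstt2 (−1.95, SE 0.34, adjusted p = 0.00110) and Gsta4 (−1.35, SE 0.25, adjusted p = 0.00152), and 3 of 12 fell with HTSeq counts. Of the methionine sulfoxide reductases 1 of 3 fell (median −0.54), the selenoprotein Msrb1 (−1.66, SE 0.34, adjusted p = 0.00297). In NADPH supply 1 of 8 rose and 1 fell (median 0.03). G6pdx, the first enzyme of the pentose phosphate pathway, fell from 268.8 to 131.1 mean normalised CPM (−1.09, SE 0.12, adjusted p = 2.18e-05), and transaldolase Taldo1 rose (0.79, SE 0.16, adjusted p = 0.00290; 0.07 with ERCC scaling). Of the genes listed around Nrf2, the regulator of antioxidant genes, 2 of 11 fell (median −0.15), ferritin heavy chain Fth1 (−0.69, SE 0.18, adjusted p = 0.0127) and the haem oxygenase Hmox2 (−0.99, SE 0.29, adjusted p = 0.0235). The listed haem oxygenase Hmox1 had counts in 8 of 37 oocytes. The Fth1 call ended with HTSeq counts (−0.43, adjusted p = 0.104).

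Selenium use concerns Gpx1 and Gpx4 directly. In selenoprotein synthesis 1 of 8 rose and 2 fell (median 0.29). Eefsec, the elongation factor for selenocysteine, fell by 0.97 (SE 0.20, adjusted p = 0.00341) and Pstk, a kinase that acts on the charged transfer RNA, by 1.36 (SE 0.31, adjusted p = 0.00658). Secisbp2l rose by 0.68 (SE 0.14, adjusted p = 0.00381) on the TMM scale and was at −0.08 on the ERCC scale. Of the other selenoproteins 1 of 7 rose and 1 fell (median 0.17): Selenow fell from 81.1 to 27.5 mean normalised CPM (−1.62, SE 0.27, adjusted p = 0.000684), and Selenot was at 0.37 (SE 0.11, adjusted p = 0.0284) with TMM and −0.39 with ERCC scaling. The Selenot call also ended without MII oocyte 1 (0.36, adjusted p = 0.0653). Over the 9 lists 15 of 74 genes passed without that oocyte and 17 with it. With ERCC scaling no gene of the 9 lists was higher and from 2 to 7 of each list were lower. Of all 12929 genes, 144 were higher and 5452 lower with that scaling.

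In batch B edgeR called 0 of 70 listed genes, with 9 at an unadjusted p under 0.05, and DESeq2 called 0, beside 0.145% of all genes. None passed without MI oocytes 4, 8 and 9 or without MI oocyte 15. The list medians ran from −0.42 in the close relatives to 0.14 in selenoprotein synthesis, beside 0.02 for all genes. The smallest adjusted p of each list belonged to Glrx3 (−0.32, 0.695), Gstm5 (−0.64, 0.280), Msra (1.28, 0.280), Me1 (0.29, 0.300), Park7 (−0.58, 0.368), Gpx3 (−0.71, 0.448), Selenow (−0.47, 0.336), Secisbp2l (0.19, 0.646) and Txnrd3 (0.39, 0.226), each given as log2 change and adjusted p. For the difference between the MII and MI changes 3 of 79 listed genes passed, beside 5.46% of all genes: Gstt2 (−2.39, adjusted p = 0.000505), G6pdx (−1.04, adjusted p = 0.0253) and Selenot (0.60, adjusted p = 0.0465). Without MII oocyte 1 only Gstt2 did (−2.27, adjusted p = 0.00214), with G6pdx at an adjusted p of 0.0662 and Selenot at 0.0670. Of the 79, 22 had an unadjusted p under 0.05, and in the lists with no call the smallest adjusted p were those of Pstk (−1.61, 0.0833), Txndc5 (0.55, 0.134), Msra (−1.74, 0.144), Hmox2 (−0.75, 0.174), Gpx3 (1.23, 0.175) and Slc7a11 (0.41, 0.22). List medians of the difference ran from −1.21 in methionine sulfoxide reductases to 0.43 in the close relatives, beside 0.04 for all genes.

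The summed normalised CPM of the 10 oocyte markers had a median of 8627 in GV and 5727 in MII oocytes of batch A and 4666 and 4162 in GV and MI oocytes of batch B, and 5 of 10 fell at MII, or 4 without MII oocyte 1, among them Zp3 (−2.21, adjusted p = 1.05e-05) and Npm2 (−1.24, adjusted p = 1.46e-05). Of 16 granulosa and cumulus cell markers, 9 to 12 were detected per GV oocyte and 6 to 14 per MII oocyte in batch A, and 7 to 9 per GV oocyte and 2 to 8 per MI oocyte in batch B. Their summed normalised CPM had medians of 36.9, 30.1, 42.5 and 41.7 in the same order, and Cyp19a1 or Nr5a2 was the most abundant in all oocytes but 1 MI oocyte, where it was Kitl. Of these, 3 could be tested at MII, and edgeR and DESeq2 called 0, with 0 at an unadjusted p under 0.05, while 2 of 6 fell at MI. Ccnd2 averaged 2.67 normalised CPM in GV oocytes of batch A and 0.0539 in MII oocytes, where 5 of 6 were at 0, and fell at MI from 4.04 to 0.277 (−3.69, adjusted p = 0.0174), as Gja1 did from 3.52 to 0.305 (−3.42, adjusted p = 0.0174). Without MI oocytes 4, 8 and 9 Ccnd2 was too scarce to be tested, and Gja1 still fell (−3.20, adjusted p = 0.0360). Other markers did not pass: Nr5a2 averaged 10.8 in GV and 12.06 in MII oocytes and 13.2 in GV and 22.3 in MI oocytes, Cyp19a1 12.5 and 14.1 and 17.9 and 15.3, Kitl 5.14 and 3.72 and 4.14 and 4.16, and Has2 had 1.07 in GV and 2.39 in MI oocytes. Of the defining markers, Amh and Foxl2 were at 0 in all 25 oocytes of batch B, and Amhr2 and Ptx3 were at 0 in all 16 GV oocytes. Markers too scarce to be tested at MII included Inha, with a mean of 0.689 in GV and 0.0506 in MII oocytes (0 in 4 of 6), and Fshr, with 0.922 and 0.0135 (0 in 5 of 6). Inhba, too scarce to be tested at MI, averaged 1.72 in GV and 0.280 in MI oocytes of batch B. The part of such RNA in the changes of Prdx5, Sod1, Gpx4 and Prdx1 was not tested.

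The immune list of 6 genes was carried by C1qb, which fell at MII from 23.8 to 4.72 mean normalised CPM (−2.41, adjusted p = 0.000567), while Cd74 and Lyz2 were at 0 in all GV oocytes of batch A and in batch B. The others were too scarce to be tested at MII, and their means were higher there than in GV oocytes. Ptprc had 0.0262 in GV and 0.362 in MII oocytes, C1qa 0.0162 and 0.197, and Lyz2 0 and 0.135. Cd74 had 0 and 0.0766, and Cd52 0 and 0.0250. The summed immune markers had medians of 22.1 and 6.12 normalised CPM in GV and MII oocytes of batch A, and 20.9 and 11.7 in GV and MI oocytes of batch B. Of 7 red blood cell markers, relevant because red cells are rich in Prdx2, the summed normalised CPM were 0 to 0.677 in GV and 0.138 to 10.6 in MII oocytes, with the highest in MII oocyte 1. In batch B they were 1.76 to 9.85 in GV and 1.33 to 6.65 in MI oocytes. MII oocyte 1 had counts of 14 granulosa and cumulus cell, 6 immune and 5 red blood cell markers. The other MII oocytes had at most 10, 3 and 3.

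As a description of shared patterns, each member was compared with 6663 or 6664 genes of at least 10 mean normalised CPM over the 12 oocytes of batch A, by Pearson's r of log2(normalised CPM + 1). The genes most like Prdx5 were Emg1 (r = 0.982) and Atp6v1d (r = 0.980), and those most like Sod1 were Tut7 (r = 0.946) and Pnrc1 (r = 0.935). Gpx4 was nearest to Lamtor4 and Rpl28 (both r = 0.945), Prdx1 to Hsd17b12 (r = 0.954) and Zfp961 (r = 0.946), and Prdx2 to 4931428L18Rik (r = 0.963) and Map1lc3b (r = 0.9495). For Sod2 they were Gm43584 (r = 0.970) and Cib1 (r = 0.961), for Gpx1 Cacnb2 (r = 0.901) and Tmem35b (r = 0.895), and for Prdx3 Gm364 (r = 0.919) and Gapdh (r = 0.900). The scarce genes had Cenpv (r = 0.917) and Med18 (r = 0.879) for Prdx6 and Lsm4 (r = 0.904) for Prdx4. These 12 points hold 2 stages, so a gene that differs between stages correlates with others that do.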

How the data were processed

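Single-oocyte RNA was sequenced by Smart-seq2. The authors trimmed reads with Trim Galore 0.6.4, aligned them with STAR 2.7.6a to mm10 with GENCODE and ERCC sequences, and deposited raw counts per gene from HTSeq 0.12.4. For RSEM 1.3.1 the authors deposited gene tables and a transcript table of expected counts. Expected counts were rounded, and the spike-ins left out of tests. Symbols and coordinates came from GENCODE M21 (GRCm38), which matched 138789 of 138927 transcript identifiers. Counts were filtered by stage, scaled with TMM and tested with edgeR 4.0.16 (quasi-likelihood, R 4.3.3) within each batch, p-values being Benjamini-Hochberg adjusted over all features tested, at 0.05. Transcript usage was tested with diffSpliceDGE. Steps were tested on simulated data. Alternatives used DESeq2 1.42.0, RLE or ERCC size factors, HTSeq counts, no filter, a replicate block, a fit of all 4 groups and fits without single oocytes. Copies were sought with BLAST 2.17.0. Within a group, no 2 oocytes held the same counts within sampling noise. Members and lists were chosen with earlier results of these data known. Named genes were all members, their transcripts with at least 5% of counts and, per list and comparison, up to 2 higher and 2 lower calls with the smallest adjusted p, or else the gene with the smallest. The fit of the difference without MI oocytes 4, 8 and 9 and the listed genes without single libraries, and the outlying values without TMM factors, were chosen after seeing the data.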

Additional observations from a re-analysis of the deposited data

Results flagged for a closer look

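In 3 of 30 groups of 6 or 10 oocytes tested, 1 oocyte lay far from the others for its distance to the nearest value against the whole range, where chance alone marks about 1 in 20. GV oocyte 7 of batch B had 380 normalised CPM of Prdx1, with the nearest oocyte at 247 (268 and 250.4 CPM without TMM factors). GV oocyte 4 of batch A had 44.5 of Prdx5, with the nearest at 28.6 (60.8 and 44.6). GV oocyte 2 of batch A had 2.59 of Prdx6, with the nearest at 5.64 (3.63 and 7.34). Without TMM factors none of the 3 lay far enough from the others to be marked.

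The change of Prdx1 at MII and at MI, each against GV of its batch, differed by 1.13 on the log2 scale, and that of Sod1 by −0.82. The Sod1 call ended without MII oocyte 1 (−0.80, adjusted p = 0.0562) and with HTSeq counts (−0.51, adjusted p = 0.380), and the Prdx1 call ended in none of 4 alternatives. Both rest on a test of the difference, in which stage and batch cannot be told apart.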

How the results depend on the processing

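Prdx5 and Sod1 stayed lower at MII and past the threshold in all 19 alternatives, at −1.93 to −1.06 and −1.74 to −0.63. Over all values of single genes and transcripts, these included, 618 kept direction and side, 19 lost a call, 10 gained a call and 22 turned direction. For every change below the cause was not tested unless the alternative itself tests other features.

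Calls at MII in batch A, 1095 genes with a fold over 2 and 2662 without that limit, were 1859 with a fold over 2 and no filter, which tests more genes, 3919 and 5596 with ERCC scaling, 653 and 1234 in the fit of all 4 groups, and 1587 without the fold limit under a replicate block. Members called were 3, with 6 under ERCC scaling and 2, without Gpx4, with HTSeq counts, with RLE size factors, in the fit of all 4 groups and under the replicate block. Calls at MI in batch B, 15 and 18, were 40 and 44 with no filter, 116 and 166 with DESeq2, 0 and 0 with HTSeq counts, with or without MI oocytes 4, 8 and 9, 36 and 39 with RSEM counts without those oocytes, 107 and 149 in the fit of all 4 groups, and 0 and 0 under the replicate block. Members called at MI, 0, were 1 with DESeq2 and 1 in the fit of all 4 groups. Differences between the changes, 608 and 823, were 1500 and 1600 with no filter and 247 and 319 with HTSeq counts. Transcripts called at MII, 1252 and 2089, were 4321 and 5142 with ERCC scaling, 532 and 627 under the replicate block, and 3419 without the fold limit with DESeq2. Member transcripts called were 3, with 5 under ERCC scaling and 1 under the replicate block. Transcripts called at MI, 0, were 2 and 2 with no filter and 103 and 120 with DESeq2, 1 of them of a member. The usage call of Prdx2 became 0 calls under the replicate block.

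Leaving out 1 oocyte at a time gave 842 to 1246 genes with a fold over 2 at MII and 1993 to 2575 without that limit, with 2 to 3 members, and 0 to 82 and 0 to 97 genes at MI, with 0 to 1 members. Without MII oocyte 1, 357 genes with a fold over 2 and 512 in all differed between the changes, with 1 member.

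With ERCC scaling at MII, Prdx1 turned to −0.34, Prdx2 to −0.65, Prdx4 to −0.13 and Sod2 to −0.39. Transcripts turned as well: Prdx1-201 to −0.0496, Prdx1-202 to −0.43, Prdx1-204 to −0.34, Prdx4-201 to −0.22, Prdx6-208 to −0.16, Sod2-201 to −0.35, Sod2-204 to −0.47, Sod2-205 to −0.25 and Sod2-207 to −0.37. Prdx2 at MII ran from −0.00731 (without GV oocyte 1) to 0.13 over the leave-outs. At MI, Sod1 turned to 0.0363 with HTSeq counts without MI oocytes 4, 8 and 9. Sod2 turned to −0.0859 under the replicate block and ran from −0.0283 (without MI oocyte 15) to 0.13 over the leave-outs, below 0 without MI oocyte 11 or 15. Sod2-204 turned to 0.0238 without MI oocytes 4, 8 and 9 and to 0.0081 with DESeq2. For the difference of the changes with HTSeq counts, Prdx3 turned to −0.089 and Gpx4 to 0.0111.

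The replicate block pairs oocytes by number. Over 6 pairs in batch A the correlation of paired oocytes, after stage means were taken out, ran from −0.399 to 0.353, and 1 of 6 was nearest to its own pair; in batch B it ran from −0.195 to 0.133 over 10 pairs, with 0. Counts were lowest for Prdx4, Prdx6, Gpx1 and Prdx3, which limits what can be said of them. Their values of 0 in MI oocytes were not confined to the library of lowest depth, and the cause was not tested.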
